A study of Mus musculus with 2 samples.

Results

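Cd209a dendritic cells were 248 of the 10591 barcodes of the adult mouse vomeronasal organ (VNO) that passed the filter, 136 in library 1 and 112 in library 2. They made up 2.39% of the filtered barcodes of library 1 (exact binomial 95% interval 2.01 to 2.82) and 2.29% of those of library 2 (1.89 to 2.75). The cells were chosen by measured counts of unique molecular identifiers (UMIs), each of which stands for 1 captured RNA molecule. A member had at least 10 UMIs of the MHC class II genes H2-Aa, H2-Ab1 and H2-Eb1 together and at least 1 UMI of Cd209a. It had at most 2 UMIs of the complement genes C1qa, C1qb and C1qc together, which mark macrophages, and none of the B cell gene Cd79a or of the T cell genes Cd3d, Cd3e and Cd3g. All barcodes held 200 to 9000 genes and at most 5% mitochondrial UMIs. These genes selected the cells, so their levels are described here and not tested.

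The VNO is the paired chemosensory organ of the nasal septum that detects pheromones. Whole VNOs of untreated wild-type C57BL/6J male mice at postnatal day 60 were digested with papain and collagenase, frozen as a cell suspension, thawed and loaded as 2 droplet libraries that read the 3′ ends of RNA. The labels give 5 VNOs and do not tie animals to libraries, so that the 2 libraries may hold cells of the same animals, and every p-value measures only the spread between these 2 libraries, which may be technical. The series has a single condition, and all comparisons below were made between groups of cells of the same libraries.

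Dendritic cells sample tissue for antigen, cut proteins to peptides, present the peptides on MHC class II and carry them through lymph to T cells. Conventional dendritic cells fall into a type 1 subset, which needs the factors Irf8 and Batf3 and takes up dead cells, and a type 2 subset, to which Irf4-expressing cells that prime CD4 T cells belong. Cells that derive from monocytes can carry many genes of the type 2 subset. Cd209a encodes a C-type lectin, a receptor that binds sugars, and is a mouse relative of human DC-SIGN. In mm10 the gene lies on the minus strand at chr8:3743397-3748984.

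The files held 12814 and 11270 barcodes, of which 44.0% passed the filter, with a median of 6662 UMIs per barcode. The members had medians of 7414 and 6672 UMIs in libraries 1 and 2, 1910 and 1848 genes, and 1.97% and 2.05% mitochondrial UMIs. All filtered barcodes of the same libraries had 3.45% and 3.54%. Of 33 barcode sequences that the libraries shared, 0 belonged to a member. The doublet caller Scrublet marked 1.19% and 2.39% of the filtered barcodes, among them 1 and 6 members, and doublets were kept. Summed UMIs of the members differed between libraries by more than the counting of independent UMIs allows (chi-square of 6.45 per degree of freedom over 6257 genes). Spread between single cells also adds to this value, so that it does not by itself show a difference between the libraries. The libraries were counted as 2 samples.

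Most Cd209a molecules of the filtered barcodes lay in members, as the rule requires. Of 1851 Cd209a UMIs in filtered barcodes, 1683 (90.9%) were in members, with a median of 6 UMIs per member in library 1 and 5 in library 2 and a highest value of 29 and 22. Of the members, 30 held 1 Cd209a UMI, 36 held 2, and 140 held at least 5. Of the 56 other barcodes with Cd209a, 24 missed the class II condition, 32 the C1q condition, 1 the Cd79a condition and 2 the Cd3 condition, and 3 missed more than 1 of these.

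The C1q and class II thresholds had few cells beside them, whereas 30 members stood at the Cd209a threshold of 1 UMI. With the other conditions met, 6 members held 2 C1q UMIs, and 2 barcodes just outside held 3, while 26 held over 5. At the class II threshold, 4 members held 10 to 19 UMIs and 3 barcodes outside held 5 to 9. The median member held 296 class II UMIs in library 1 and 260 in library 2. In the plot of class II against C1q counts, 209 of the 248 members lie on the lowest level, with no C1q UMI.

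**Figure D1:**
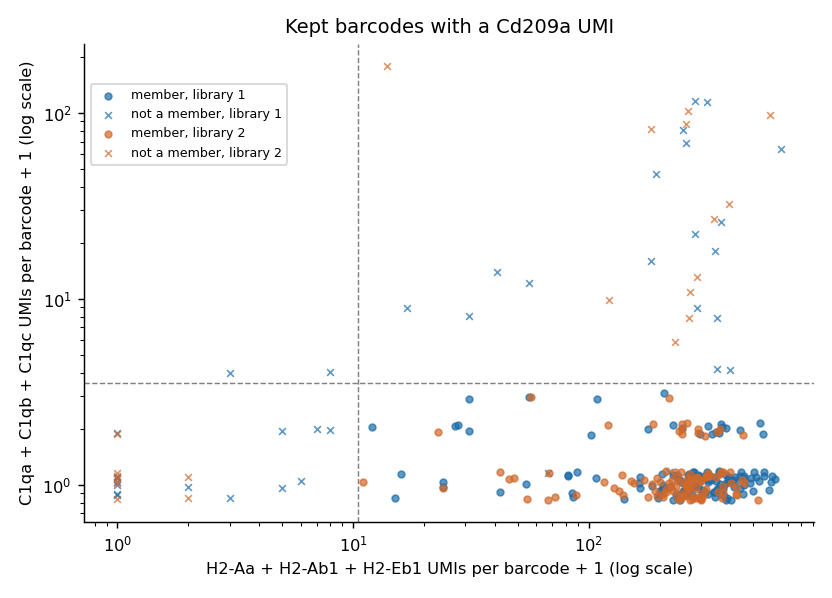
Class II UMIs (H2-Aa, H2-Ab1 and H2-Eb1, horizontal axis) and C1q UMIs (C1qa, C1qb and C1qc, vertical axis) of the 304 filtered barcodes with a Cd209a UMI, both plus 1 on log scales, with a small vertical scatter added. Filled points are the 248 members and crosses the 56 other barcodes, blue in library 1 and orange in library 2, and dashed lines mark the thresholds that chose the members.

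The label was set beside 3 markers that the rule did not use. They were chosen with earlier results of these data known, so that they are no independent check of the label. Napsa, an aspartic protease of antigen-presenting cells on chromosome 7, had a UMI in 94.4% of members (exact binomial 95% interval 90.7 to 96.9). Klrd1 (CD94), a lectin-like receptor first known from NK cells, was found in 82.3% (76.9 to 86.8). Flt3, the receptor for the growth factor that dendritic cell precursors depend on, was found in 35.1% (29.2 to 41.4). They were set beside 664 neurons with at least 5 Omp UMIs, 0 UMIs of the leukocyte gene Ptprc and under 10 class II UMIs. These neurons should lack the 3 markers and were deeper (median 14006 UMIs against 7074 in members). Of them, 1 cell had Napsa and 0 had Klrd1 or Flt3, where 0 of 664 allows a share of up to 0.452%. The choice of neurons left out barcodes with much leukocyte RNA, so that these low shares follow from it in part. These intervals cover counting error only.

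All 3 markers were present in 77 members (31.0%), 2 in 129 (52.0%), 1 in 36 (14.5%) and none in 6 (2.42%). Of the 87 members with Flt3, 80 also held Klrd1. The markers were also found in the cells most like members. Napsa had a UMI in 96.9% of the Ly6c2 Ccr2 monocytes, 87.4% of the Cd209a-negative class II-high leukocytes and 34.2% of the macrophages described below, and Klrd1 in 0%, 41.4% and 2.30%. Flt3 had a UMI in 6.25%, 36.9% and 3.55% of these cells, so that Napsa and Flt3 did not set members apart from all of them. After each cell was thinned to 2000 UMIs, which left out 9 members, Napsa was found in 81.2%, Klrd1 in 52.7% and Flt3 in 11.7%.

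The lists of other lymphoid and myeloid cells held genes at 0 and genes that were found in many members. Ms4a1 and Pax5 of B cells, Trbc1, Trbc2 and Lck of T cells, Nkg7, Ncr1, Klrb1c, Gzma and Prf1 of NK cells, Camp and Retnlg of neutrophils and Cd207 of Langerhans cells had 0 UMIs in the 248 members, which allows a share of members with a UMI of up to 1.21%. Trac was found in 1 member, Cd4 and Cd8b1 each in 3 (1.21%) and Il7r in 8.87%. The rule left out barcodes with Cd79a or Cd3 UMIs, so that low shares of B and T cell genes follow from it in part. Of the B cell list, Ighm was found in 46.4% of members and 55.5% of C1q-high macrophages, Cd79b in 6.05% and 24.4%, and Cd22 in 4.84% and 4.41%. Of the neutrophil list, Il1r2, a decoy receptor for interleukin 1, was found in 56.9% of members and 10.1% of macrophages and was called higher in members, and Ltf was found in 21.4% of members and 21.5% of Omp neurons. Siglech, a gene of plasmacytoid dendritic cells, was found in 7.26% of members and in 13.9% of the C1q-high macrophages described below.

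Signal of epithelium and glands was present in the members and in other cells. Together, Epcam, Krt18 and Krt5 gave more than 2 UMIs in 45 members (18.1%), in 10.3% of C1q-high macrophages and in 99.2% of Omp neurons. Obp2a, an odorant-binding protein gene, and Lcn3, a lipocalin gene, both known from nasal glands, had a UMI in 89.9% and 71.8% of members, in 92.0% and 67.0% of macrophages and in 89.6% and 70.5% of Omp neurons. They had 12048 and 6899 UMIs in the members of library 1, but 11100 and 6308 of these came from 1 barcode with 37870 UMIs. A single barcode of library 2 held 443 of 449 Igfbp5 and 296 of 314 Dcn UMIs, genes of stromal cells. Their part in the results below was not tested beyond the fits without barcodes with over 2 epithelial UMIs.

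Members were set against C1q-high macrophages, defined as 1043 barcodes (558 and 485) with at least 10 class II UMIs and at least 10 C1q UMIs. The question was which genes separate the Cd209a cells from the more common class II-high cell of the same tissue. UMIs were summed per library and group and fitted with the quasi-likelihood test of edgeR, with a threshold of 0.05 on p-values adjusted by the Benjamini-Hochberg method over all genes tested. Levels are given as UMIs per 1000000 UMIs of the group in a library (CPM), and genes of the gates are left out of the counts of calls. Of 12991 genes, 803 (6.18%) were higher in members and 718 (5.53%) were lower, with a median log2 fold change of -0.14.

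Among the genes that the naming rule placed highest in members and that had UMIs in both groups, Klrd1 came first, at 529 and 416 CPM in members and 9.49 and 7.33 in macrophages (log2 fold change 5.96 ± 0.24 (SE), adjusted p = 2.87e-07). The values of members lay far above those of macrophages in both libraries. Cd7, an immunoglobulin-like surface protein of lymphoid cells and some dendritic cells, had 90 and 27 UMIs in members and 0 in macrophages, which made it at least 135-fold higher (floor of 3 counts over the group). The other genes that the naming rule placed highest were P2ry10, a lysophospholipid receptor (5.41 ± 0.43), Ccl17, a chemokine for Ccr4 (5.35 ± 0.67, but 4.19 without library 1), Siglecg, an inhibitory sialic acid receptor (5.18 ± 0.35), and Ifitm6 (4.77 ± 0.23). At the other end, the chemokine Ccl12 was at 730 and 825 CPM in macrophages and had 0 UMIs in members, at least 477-fold lower. Lilra5, Tmem37, Slco2b1, C5ar1 and Apoc2 were also at 0 in members and at least 49.2-, 47.7-, 37.3-, 35.3- and 23.8-fold lower.

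Class II accessory genes were higher in members than in macrophages, although both groups were chosen for class II. Of 8 tested members of the list, 7 were higher and 0 lower, with a median log2 fold change of 1.33 against -0.14 over all genes tested. H2-Oa, the alpha chain of the DO molecule that restrains peptide loading, stood at 314 and 297 CPM against 15.7 and 20.3 (4.25 ± 0.20). H2-DMb2, a chain of the DM molecule that catalyses loading, stood at 200 and 205 CPM against 13.3 and 14.3 (4.02 ± 0.19), and had a UMI in 54.8% of members and 19.6% of Omp neurons. H2-Ob rose by 3.21 ± 0.23, H2-DMa by 1.30 ± 0.12, H2-DMb1 by 1.14 ± 0.15, and Ciita, the master activator of class II genes, by 1.35 ± 0.21. The smallest call was Cd74, the invariant chain (0.43 ± 0.12, adjusted p = 0.0428), which was lost in 5 of the alternative fits. H2-Eb2 had 4 cells with a UMI and was not called.

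The class II genes lie together on chromosome 17, and a stretch before their start carries elements through which Ciita acts, among them a CCAAT box in reverse, GATTGG. The 100 bases before the start of the 6 class II genes with this motif on the strand of the gene are shown because the 4 of them that were tested, H2-DMb1, H2-DMb2, H2-Oa and H2-Ob, were all higher in members. H2-Aa and H2-Eb1 chose the cells. They are from RefSeq on GRCm38.p6, 5′ to 3′ on the strand of the gene, with GATTGG, or its reverse complement CCAATC, in capitals.
H2-Aa, chr17:34287824-34287923, minus strand: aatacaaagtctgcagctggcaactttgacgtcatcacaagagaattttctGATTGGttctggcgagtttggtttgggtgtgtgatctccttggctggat
H2-Eb1, chr17:34305767-34305866, plus strand: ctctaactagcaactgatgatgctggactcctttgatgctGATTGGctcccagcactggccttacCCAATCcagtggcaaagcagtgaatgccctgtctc
H2-DMb1, chr17:34153091-34153190, plus strand: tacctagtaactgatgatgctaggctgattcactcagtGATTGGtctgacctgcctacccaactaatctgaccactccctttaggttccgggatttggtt
H2-DMb2, chr17:34145149-34145248, plus strand: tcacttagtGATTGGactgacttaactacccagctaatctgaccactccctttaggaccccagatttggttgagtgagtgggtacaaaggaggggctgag
H2-Oa, chr17:34092279-34092378, plus strand: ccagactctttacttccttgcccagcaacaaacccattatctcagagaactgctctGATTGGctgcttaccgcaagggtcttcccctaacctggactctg
H2-Ob, chr17:34238805-34238904, plus strand: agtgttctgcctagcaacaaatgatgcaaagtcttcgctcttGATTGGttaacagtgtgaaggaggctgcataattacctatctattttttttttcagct

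The motif began 49 bases before the start in H2-Aa, 60 in H2-Eb1, 62 in H2-DMb1, 91 in H2-DMb2, 44 in H2-Oa and 58 in H2-Ob. Among 32851 RefSeq promoters, 4.58% held GATTGG on the strand of the gene within 100 bases before the start, and 16.1% held it on either strand in the whole window of 300 bases. Of 11 class II genes looked up, 8 matched an entry, and H2-DMa and H2-Eb2 had no match on their strand within 100 bases. In H2-Eb2, which was not called, GATTGG began 101 bases before the start, just outside this limit. H2-DMa, where it began 199 bases before 1 of 2 starts, was also higher in members than in macrophages. A link between the motif and the calls was not tested. H2-Ab1, Ciita and H2-Ea-ps are named only. A match of letters is a description of the window and not a measured binding site.

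The list of antigen processing proteases, which also holds genes that are not proteases, mostly went the other way. Of 14 listed genes, 2 were higher in members and 9 lower, with a median log2 fold change of -0.99. Asah1 and Psap, which are not proteases, were among the 9. Napsa (885 and 862 CPM against 141 and 140, 2.79 ± 0.14) and Ifi30, the thiol reductase that opens disulfide bonds of antigens (1370 and 1190 CPM against 471 and 425, 1.68 ± 0.14), were the higher pair. Ctsd (-3.62 ± 0.21), Lgmn (-2.98 ± 0.16), Ctsb (-2.66 ± 0.13) and Ctsl (-1.71 ± 0.22) were lower, all enzymes that cut proteins in lysosomes. Ctss, which trims the invariant chain, fell by 1.24 ± 0.10 but was still at 1570 and 1550 CPM in members.

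Among factors of conventional dendritic cells, 7 of 16 were higher and 2 were lower than in macrophages. Irf4, a factor of the type 2 subset, was at 44.1 and 64.0 CPM against 3.56 and 3.66 (4.02 ± 0.32, adjusted p = 2.34e-05). Zbtb46, a factor that marks conventional dendritic cells, was at 17.8 and 20.5 CPM against 1.48 and 2.67 (3.34 ± 0.47), a call that was lost after thinning, and had a UMI in 26.1% of Omp neurons. Cbfa2t3 rose by 3.00 ± 0.24 and Rel by 1.65 ± 0.15. Irf8, which the type 1 subset requires, was lower (87.3 and 67.9 CPM against 252 and 251, -1.52 ± 0.19), as was Id2 (-1.70 ± 0.22). Batf3, which the type 1 subset also needs, was among the 7 higher factors. It was found in 39.1% of members and 25.6% of macrophages, and in 12.1% and 9.40% after thinning. Of 9 tested type 1 genes, 2 (Itgae and Wdfy4) were higher, 2 (Tlr12 and Cadm1) were lower and 5 were not called. Irf4 was found in 28.6% of members and Irf8 in 19.8%, both in 17 cells, against 2.11% and 63.3% of macrophages. After thinning to 2000 UMIs, Irf4 was in 10.9% of members and 1.02% of macrophages, and Irf8 in 7.11% and 38.4%. Omp neurons had Irf8 in 0.602% and Irf4 in 0 cells.

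Growth factor receptors differed in both directions. Flt3 (58.2 and 66.6 CPM against 4.75 and 8.33, 3.41 ± 0.30) and Kit, the receptor for stem cell factor (18.8 and 34.6 CPM against 1.19 and 1.67, 4.30 ± 0.48), were higher in members. Csf1r and Csf3r, receptors for the macrophage and granulocyte factors, were lower (-3.09 ± 0.22 and -2.58 ± 0.46). Csf2ra, a chain of the receptor for GM-CSF, was at 248 and 232 CPM in members and 265 and 243 in macrophages and was not called (adjusted p = 0.811).

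Of 11 tested genes of type 2 dendritic cells, 6 were higher and 1, Sirpa (-0.85 ± 0.20), was lower. Clec10a, a galactose-binding lectin, was at 505 and 389 CPM against 27.3 and 25.7 (4.24 ± 0.21). Mgl2 (CD301b), its near relative next to it on chromosome 11, was at 246 and 296 CPM against 45.7 and 56.6 (2.56 ± 0.18). Because the sequences of these neighbours are alike, reads could be split between them, and each value carries that uncertainty. Ltb, a cytokine of lymphoid tissue, rose by 4.13 ± 0.25, and Tnip3, an inhibitor of NF-kB signalling, by 2.56 ± 0.21. Clec10a was found in 70.2% of members and Mgl2 in 35.1%, with 57 members holding both, against 0.151% and 0.301% of Omp neurons. After thinning, Clec10a was in 47.3% of members and 3.85% of macrophages, and Mgl2 in 23.8% and 7.47%.

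Of 17 tested lectins and NK-type receptors, 8 were higher than in macrophages, 4 were lower and 5 were not called, with a median log2 fold change of 0.67. Clec5a (-2.07 ± 0.24), Clec4a2 (-1.50 ± 0.18), Clec4n (-1.29 ± 0.28) and Clec4a3 (-0.83 ± 0.18) were the lower ones. Klrk1 (NKG2D), an activating receptor of NK and T cells, was at 186 and 156 CPM against 16.0 and 18.0 (3.50 ± 0.21), and Klrb1b had 99 and 46 UMIs in members against 37 and 35 in the far larger macrophage sums (2.93 ± 0.28). Klri1 had 18 and 9 UMIs in members against 2 and 1 in macrophages, and Klri2 had 24 and 15 against 2 and 3. In the Cd209 family, Cd209d had 72 UMIs in 9.68% of members and 0 in macrophages, monocytes and Omp neurons. Cd209d lies near Cd209a on chromosome 8 and its sequence is alike. Cd209c was found in 4.84% of members, Cd209b in 1.61% and Cd209e in 0.806%, and Cd209f and Cd209g had 0 UMIs.

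Macrophage genes were lower in members. Members were chosen for low C1q and macrophages for high C1q, so that this direction follows in part from the choice of cells. Of 18 tested macrophage genes, 16 were lower and 0 higher, with a median log2 fold change of -3.85, or -3.47 with genes at 0 set to their bound. Apoe, a lipid carrier, was at 245 and 917 CPM in members against 46300 and 45200 in macrophages (-6.18 ± 0.47, but -5.52 without library 1 and -7.35 without library 2). Trem2 (4 and 0 UMIs in members, -8.18 ± 0.38), Ms4a7 (-7.06 ± 0.23), Pf4 (-6.36 ± 0.23) and Cx3cr1 (-3.31 ± 0.19) were lower. Receptors for antibody and dead cells followed, with 11 of 15 lower and 0 higher, among them Fcgr3 (-2.85 ± 0.17) and Fcgr1 (-1.53 ± 0.16). Of 12 genes of Toll-like receptor sensing, 7 were lower and 0 higher. Among these was Cd14, the co-receptor for bacterial lipid, at 138 and 106 CPM against 902 and 942 (-2.74 ± 0.18).

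Adhesion and motility genes were mostly higher in members. Of 16, 11 were higher and 0 lower, with a median log2 fold change of 1.87. Itgb7, the integrin chain for homing to mucosa, was at 199 CPM in both libraries of members and at 9.49 and 13.3 in macrophages (4.28 ± 0.21). S100a4, a calcium-binding protein of motile cells, was at 1740 and 1390 CPM against 129 and 126 (3.78 ± 0.17), and Vim at 2800 and 2160 CPM against 561 and 432 (2.48 ± 0.18). Itgax (CD11c) was at 101 and 74.3 CPM against 56.9 and 63.0, a difference of 0.73 ± 0.21 that lost its call in 5 alternative fits.

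Costimulatory genes and chemokines gave mixed counts. Tnfsf9 (4-1BB ligand), which costimulates T cells, was at 578 and 642 CPM against 91.1 and 116 (2.71 ± 0.16), and 5 of 13 costimulatory genes were higher and 2 lower. Of 18 chemokines, 5 were higher and 9 lower, with a median log2 fold change of -1.16. Ccl6 and Ccl9 rose by 1.31 ± 0.18 and 1.45 ± 0.18. Ccl3 (369 and 680 CPM against 1750 and 1760, -1.61 ± 0.20) and Cxcl2 (-2.69 ± 0.20), which draw monocytes and neutrophils, fell. Il1b was abundant in members at 4260 and 3790 CPM, but its difference from macrophages was 0.47 ± 0.11 and lost its call in 3 alternative fits. Tnf was at 248 and 254 CPM against 266 and 275 and was not called (adjusted p = 0.880).

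Immediate early and stress genes are known to rise during tissue digestion. Of 15, 1 (Nr4a1) was higher in members and 4 (Jun, Fos, Dusp1 and Hspa1a) were lower, with a median of -0.29 against -0.14 over all genes. Of 16 interferon-stimulated genes, 3 were higher and 2 lower, among the higher ones Ifitm3 (4020 and 4230 CPM against 1930 and 1860, 1.28 ± 0.10). Of 16 cell division genes, 1 was higher, Mki67 (26.3 and 20.5 CPM against 7.12 and 6.66, 1.93 ± 0.35), and its call was lost after thinning. Over all genes tested, 6.18% were higher and 5.53% lower, so that 1 higher gene of 15 or of 16 is near the share over all genes.

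**Figure D2:**
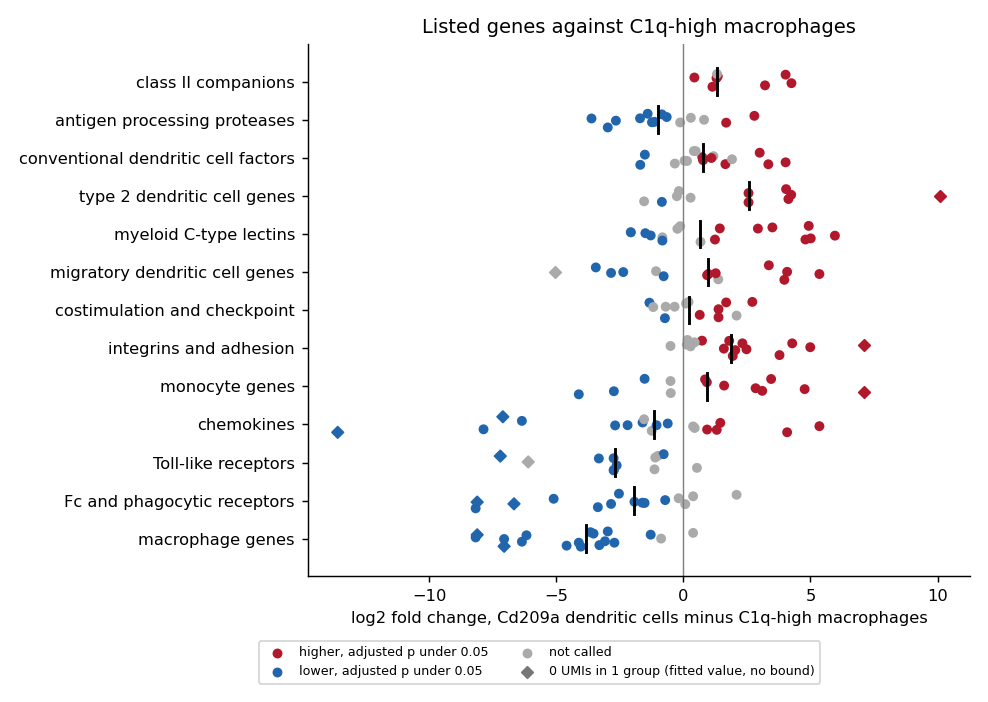
Log2 fold change of listed genes, members minus C1q-high macrophages, 1 row per list and 1 point per gene, with the list's median as a black bar. Red and blue points passed an adjusted p of 0.05, grey points did not, and diamonds have 0 UMIs in 1 group, so that their place is set by the fit. The medians run from -3.85 for macrophage genes to 2.56 for type 2 dendritic cell genes.

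Members were next compared with Ly6c2 Ccr2 monocytes, the circulating type of monocyte that enters tissue. These were 32 barcodes (19 and 13) with at least 1 UMI of Ly6c2 and of Ccr2, at least 5 of Lyz2, under 10 of class II and at most 2 of C1q. Of 8635 genes, 478 (5.54%) were higher in members and 273 (3.16%) lower, with a median log2 fold change of 0.39. DESeq2 called 187 higher and 189 lower. The 115103 and 71059 UMIs of the monocytes limit this comparison, and many genes of members had 0 UMIs there.

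Monocyte genes were lower and class II partners higher in members. Of 14 tested monocyte genes, 10 were lower and 0 higher, with a median log2 fold change of -2.40. Chil3, a chitinase-like protein of classical monocytes, was at 2560 and 3030 CPM in monocytes and had 0 UMIs in members, at least 1690-fold lower. Hp (-7.79 ± 0.41), Fn1 (-5.53 ± 0.36), Thbs1 (-5.51 ± 0.32) and Gsr (-3.88 ± 0.34) were also among the genes placed lowest. All 7 tested class II partners were higher, and since monocytes were chosen for low class II, this direction follows the choice of cells. The monocytes were also chosen by Ly6c2, Ccr2 and Lyz2, so that the direction of the monocyte genes follows in part from that choice.

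Klrd1 had 889 UMIs in members and 0 in monocytes, at least 29.9-fold higher. Ccl5, a chemokine for T cells and monocytes, H2-Oa, Mgl2 and Tbc1d4, a gene raised in migrating dendritic cells, were also at 0 in monocytes and at least 20.9-, 19.1-, 16.6- and 10.2-fold higher. Igfbp5 was at least 15.6-fold higher by the same count, but 443 of its 449 UMIs in library 2 came from the single barcode named above. Clec10a was at 505 and 389 CPM against 26.1 and 28.1 (4.34 ± 0.39), and Tnfsf9 at 578 and 642 CPM against 52.1 and 14.1 (4.32 ± 0.35, but 5.25 without library 1 and 3.65 without library 2).

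Some genes were shared by members and monocytes. Napsa was at 885 and 862 CPM in members and 817 and 675 in monocytes (0.52 ± 0.19, adjusted p = 0.0847), Itgb7 at 199 in both libraries against 200 and 211 (0.26 ± 0.29, adjusted p = 0.684), and Ms4a4c at 568 and 622 against 521 and 830 (0.15 ± 0.21, adjusted p = 0.754). Against macrophages, all 3 were higher in members. Plac8, Ly6c2 and Ccr2 lay between the groups, with Plac8 at 446 and 385 CPM in members, 3500 and 4600 in monocytes and 28.2 and 57.3 in macrophages. Ly6c2 and Ccr2 chose the monocytes and are given as values only, with Ly6c2 at 157 and 146 CPM in members and Ccr2 at 206 and 227.

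**Figure D3:**
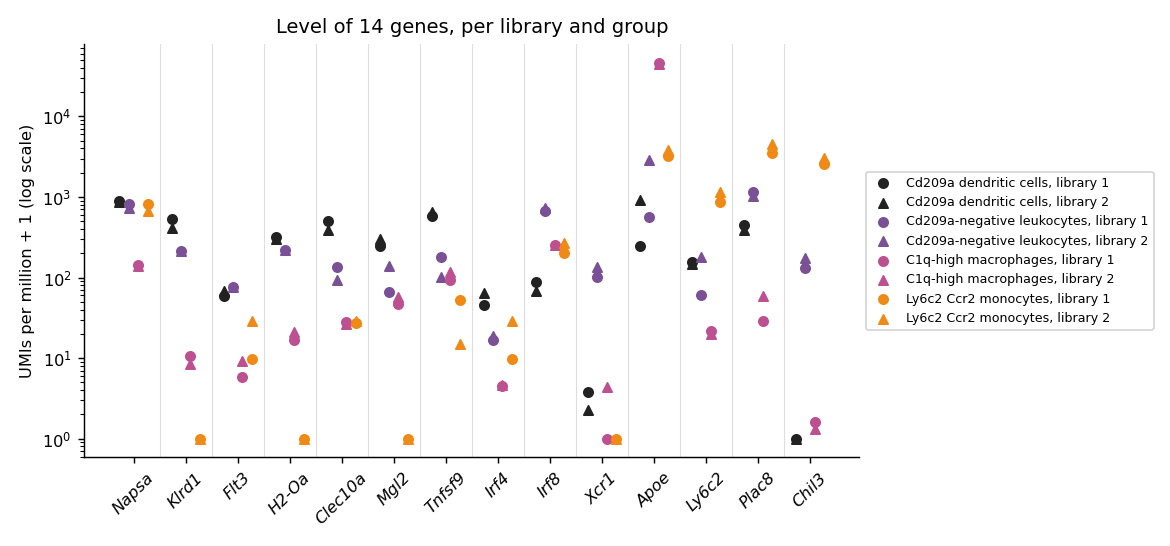
Level of 14 genes in CPM plus 1 on a log axis, by group (colour) and library (circle, library 1, triangle, library 2). Members and macrophages stand apart for Klrd1, H2-Oa and Apoe, members and monocytes for Klrd1, Ly6c2 and Chil3, and members and Cd209a-negative leukocytes for Irf8 and Xcr1. Ly6c2 was among the genes that chose the monocytes.

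The third comparison asked what Cd209a adds among class II-high cells. The same gate with Cd209a at 0 held 789 barcodes (408 and 381), of which 74.4% had over 2 epithelial UMIs and whose median depth was 12331 UMIs. Of 15258 genes, 2552 (16.7%) were higher in members and 3613 (23.7%) lower. The naming rule gave Tnfsf9 (6.06 ± 0.33), Mgl2 (5.94 ± 0.21), the inhibitory receptor Cd33 (5.93 ± 0.32), Clec4b1 (5.89 ± 0.21), Irf4 (5.87 ± 0.31) and Tnip3 (5.78 ± 0.20) as the highest. The lowest were the vomeronasal receptor genes Vmn1r196, Vmn2r105, Vmn1r224, Vmn1r4, Vmn1r68 and Vmn1r227, all at 0 UMIs in members and at least 96.7-, 64.3-, 38.2-, 34.4-, 33.9- and 31.5-fold lower. Such receptors are expressed by vomeronasal neurons, and Omp was at 403 and 432 CPM in this group against 11.3 and 10.2 in members.

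A narrower group was set, after the data had been seen, of 111 barcodes (57 and 54) in the same gate with Cd209a at 0, at least 1 UMI of the leukocyte gene Ptprc and at most 2 epithelial UMIs. They had a median of 6662 UMIs and were compared with the 203 members with at most 2 epithelial UMIs. Of 8659 genes, 39 (0.450%) were higher in members and 48 (0.554%) lower, with a median log2 fold change of -0.01. Epcam, Krt18, Krt5 and Ptprc, which helped to choose these cells, were not left out of this fit. Some of the 111 may be Cd209a cells in which no Cd209a molecule was caught, which was not tested.

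Genes of type 1 dendritic cells were lower in the Cd209a cells. Of 10 tested, 6 were lower and 0 higher. Irf8, from the list of conventional dendritic cell factors and not among these 6, was at 107 and 83.4 CPM in members and 662 and 719 in the other leukocytes (-2.77 ± 0.21, adjusted p = 3.42e-04). Xcr1, the chemokine receptor that defines the type 1 subset, had 3 and 1 UMIs in members and 45 and 53 in the others (-5.13 ± 0.44, but -5.73 without library 1 and -4.48 without library 2). Clec9a, the receptor for dead cells, had 10 and 1 UMIs in members against 28 and 35 (-3.11 ± 0.53, but -5.14 without library 1 and -2.22 without library 2), and Tlr3 (-3.51 ± 0.63) and Cd24a (-2.35 ± 0.26) were lower. Naaa and Id2, from other lists and also known from type 1 cells, were lower (-2.82 ± 0.24 and -2.58 ± 0.27). Xcr1 was found in 24.3% of the 111 cells and in 1.61% of all members, and in members it did not occur in a cell with Clec9a.

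Some genes of type 2 cells were higher. Of 10 tested type 2 genes, 3 were higher, 0 lower and 7 not called. Epcam was among those not called, but its UMIs were limited in both groups by the choice of cells. The higher ones were Clec10a (629 and 459 CPM against 134 and 91.1, 2.34 ± 0.27), Tnip3 (1.92 ± 0.24) and Mgl2 (1.73 ± 0.29). Tnfsf9 was at 662 and 769 CPM against 181 and 101 (2.39 ± 0.27), and Klrd1 at 584 and 442 against 212 and 213 (1.35 ± 0.22, adjusted p = 0.0169). Outside the naming rule and picked from the 39 after their values were seen, Nfkbia (1.64 ± 0.26), Tnfaip3 (1.61 ± 0.25), Nfkbiz (1.71 ± 0.22) and Ptgs2 (2.01 ± 0.32), known as targets of NF-kB, were higher, as was Wfdc17 (1.80 ± 0.18). From the lists, Tnf rose by 1.69 ± 0.23, Il1b by 1.13 ± 0.21 and Cd83 by 0.90 ± 0.16.

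None of 8 tested class II partners passed the edgeR test here, with a median log2 fold change of 0.32, and over all genes 816 had an unadjusted p under 0.05. Flt3 had a difference of -0.02 (adjusted p = 0.999) and was found in 35.1% of members and 36.9% of the 111 cells. Monocyte genes gave 2 higher (Ms4a4c and Ms4a6c) and 3 lower, Chil3 and Plac8 among them, of 15 tested. Chil3 had 58 and 69 UMIs in the 111 cells and 0 in members.

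**Figure D4:**
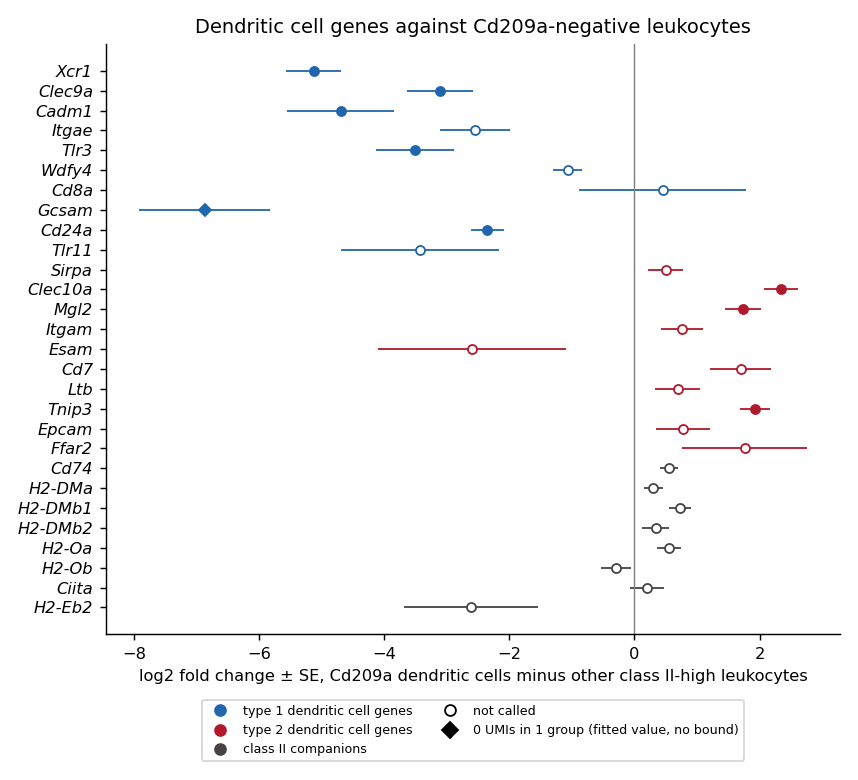
Log2 fold change with its standard error, members with at most 2 epithelial UMIs minus the 111 Cd209a-negative leukocytes, for all tested genes of the type 1 (blue), type 2 (red) and class II lists (grey). Filled symbols passed an adjusted p of 0.05, and the diamond, Gcsam, has 0 UMIs in members. The filled type 1 genes lie left of 0 and the filled type 2 genes right of it. Epcam, a type 2 gene, was limited in both groups by the choice of cells.

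The members were not alike among themselves. In the 239 members that could be thinned to 2000 UMIs, 5181 genes were ranked by the ratio of variance to mean, taken from the library where it was lower. Lyz2 (lysozyme) came first, with ratios of 64.3 and 36.4 in libraries 1 and 2, followed by Apoe, Calb2 and Ccl4. Obp2a had a ratio of 392 in library 1, where 1 barcode held most of its UMIs, and 8.77 in library 2. The median member held 2 Lyz2 UMIs in both libraries, the highest 450 and 361, and the top 10% of members held 83.3% and 83.2% of all Lyz2 UMIs. Ccl4, a chemokine that draws monocytes and T cells, ranged from 0 to 187 and from 0 to 129 UMIs, with medians of 4.50 and 10.5. Il1b was spread more evenly, with medians of 25.5 and 20.5 UMIs and 91.1% of members with a UMI.

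**Figure D5:**
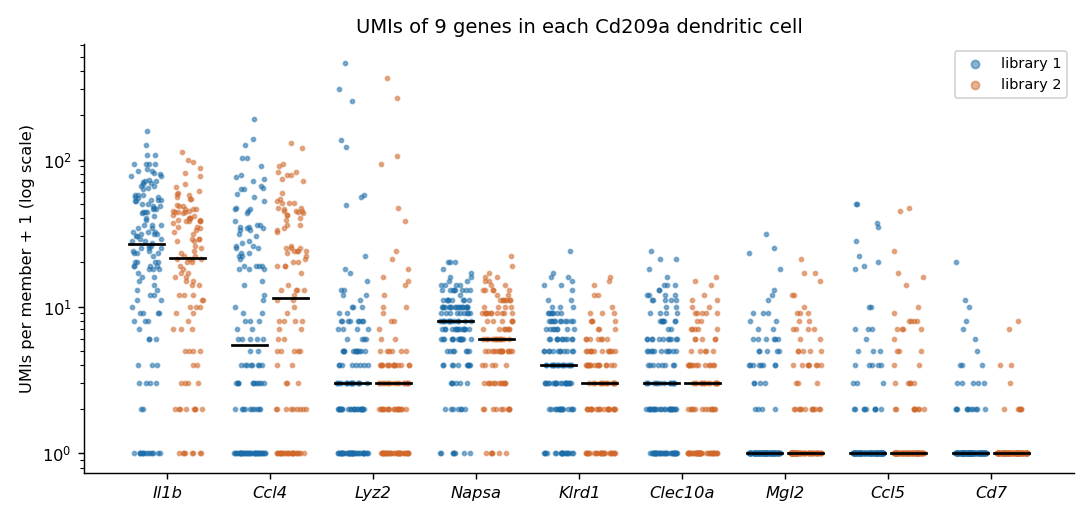
UMIs of 9 genes in each member plus 1 on a log axis, library 1 in blue and library 2 in orange, with medians as black bars. Il1b and Napsa are found in most members, while Lyz2, Ccl5 and Cd7 have medians of at most 2 UMIs and a few members far above.

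The 17 members with at least 20 Lyz2 UMIs (9 and 8) differed from the rest in some genes of the monocyte and dendritic cell lists. This split and those that follow were chosen after the values were seen, are given without a test, and rest on shares of cells of similar depth, with medians of 7212 and 7003 UMIs with and without high Lyz2. Of the 17, 29.4% had Klrd1 against 86.1% of the other 231 members, and 11.8% had Flt3 against 36.8%. Plac8 was found in 100% against 43.7%, Ccr2 in 82.4% against 52.4%, Csf1r in 64.7% against 18.6% and Ly6c2 in 52.9% against 13.9%. Both libraries gave the same order for each of these 6 genes, which were picked from a longer list. Other genes of it differed less or in another way. Ms4a4c, a monocyte gene, was found in 88.2% against 87.4%, and Napsa in 88.2% against 94.8%. Of the type 2 genes, Mgl2 was found in 47.1% against 34.2% and Clec10a in 58.8% against 71.0%. Ccl5 was found in 0 of the 17 and in 30.7% of the rest.

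Members with Cd7 and members with Ccl5 were described in the same way. Cd7 was found in 37 members (26 and 11), of which 10.8% had Mgl2 against 39.3% of the rest, 10.8% had Ccl5 against 31.8%, 97.3% had Klrd1 against 79.6% and 56.8% had Flt3 against 31.3%. Plac8 was found in 78.4% of the Cd7 members against 42.2%, and Cd209d in 32.4% against 5.69%. For Cd7 members, Il1b was found in 73.0% against 94.3% and Tnf in 40.5% against 64.5%. The 71 members with Ccl5 had Tbc1d4 in 62.0% against 35.0% of the rest and Ly6c2 in 5.63% against 20.9%. Per library, Mgl2 was in 3.85% and 27.3% of Cd7 members against 36.4% and 42.6% of the rest, and Ccl5 in 3.85% and 27.3% against 30.9% and 32.7%. Mgl2 was in 33.8% of members with Ccl5 and 35.6% of those without, with opposite directions in the libraries (40.0% against 26.7%, and 27.8% against 47.4%). Median depths were 7003 UMIs with Cd7 and 7098 without, and 6893 with Ccl5 and 7121 without.

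Genes of the migratory dendritic cell list were found in shares of members that differed widely. Marcksl1 was found in 66.1% of members, Tbc1d4 in 42.7%, Tmem123 in 31.9% and Ccl5 in 28.6%, against 37.5%, 1.20%, 25.6% and 0.301% of Omp neurons. Ccr7, the receptor that guides dendritic cells into lymphatics, was found in 24 members (9.68%, interval 6.30 to 14.1) and in 0.384% of macrophages, and Ccl22 in 20 (8.06%), with 9 members holding both. Of the Ccr7 members, 70.8% had Tbc1d4 against 39.7% of the rest, and 37.5% had Ccl22 against 4.91%. Fscn1, the actin-bundling protein of mature dendritic cells, was found in 6 members (2.42%), below its share in Omp neurons (50.9%). Against macrophages, 7 of 14 genes of this list were higher and 4 lower, with Ccr7 at 44.1 and 23.1 CPM against 6.82 and 0.333 (3.36 ± 0.69, but 5.67 without library 1) and Ccl22 at 40.4 and 15.4 against 3.26 and 0.333 (4.08 ± 0.68, but 5.10 without library 1).

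Genes of the division list ranged from rare to common in members. Hmgb2 was found in 75.4%, Tubb5 in 71.8%, Pcna in 36.7% and Stmn1 in 15.3%, each below its share in Omp neurons (83.7%, 86.1%, 52.0% and 97.7%). These shares are at full depth, and the neurons were deeper (median 14006 UMIs against 7074 in members). Mki67 was found in 27 members (10.9%, interval 7.30 to 15.4), Top2a in 14 (5.65%) and Birc5 in 5 (2.02%), all 5 in library 1. Of the 27 members with Mki67, 4 also held Top2a and 4 held Birc5. After thinning to 2000 UMIs, Mki67 was in 3.77% of members, 0.906% of macrophages and 0.151% of Omp neurons.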

How the data were processed

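RNA of single cells was measured in 2 libraries of wild-type VNO. The deposited file holds UMI counts of 32285 genes per barcode, which the authors made with Cell Ranger 4 on mm10, with both libraries joined, and Seurat 3.2.3 is also named in the submitters' processing notes. No source used here states whether the libraries were brought to equal depth when joined. Total UMIs were 108005626 and 95442231.

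Members and gene lists (27 lists, 339 genes in the counts) were chosen with earlier results of these data known. Counts were summed per library and group of cells, since cells are not replicates, and genes with at least 10 UMIs were fitted with edgeR 4.0.16 (TMM scaling, quasi-likelihood test, R 4.3.3), 2 libraries against 2, with Benjamini-Hochberg adjustment. An exact permutation test of this size cannot go below p = 0.333 (two-sided) and was not used. Named genes were the markers, the listed genes and, per comparison and direction, the 6 largest called changes with the same sign in both libraries, at least 100 UMIs and no gate gene. The fits were tested on simulated data for the 3 planned comparisons. In that test with macrophages, 64.0% of genes changed by 2 on the log2 scale and 14.0% of those changed by 1 were found.

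Doublets were scored with Scrublet in scanpy 1.11.5 at an expected rate of 8%. Shares were compared after thinning to 2000 UMIs per cell. Alternatives were DESeq2 1.42.0, its size factors, other count filters, a mitochondrial limit of 10%, no doublets, thinning, a library block and, added after the data were seen, a limit on epithelial UMIs. Same-numbered libraries deviated together only weakly (correlations 0.117, 0.0842 and 0.0868), and the labels do not say that a library number marks one preparation. Results of some listed genes are not reported here.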

Additional observations from a re-analysis of the deposited data

Results flagged for a closer look

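Outside the filtered data, 33 barcodes met the gene conditions of the Cd209a dendritic cells and exceeded the mitochondrial limit, 15 in library 1 and 18 in library 2. They were not in any comparison. Their median mitochondrial share was 7.09% and 6.98%, with a highest value of 19.1% and 20.6%. Klrd1 was found in 18 of them (54.5%, exact binomial 95% interval 36.4 to 71.9) and Napsa in 19 (57.6%, 39.2 to 74.5), against 82.3% and 94.4% of members. More than 2 epithelial UMIs were found in 16 (48.5%), against 18.1% of members, and the median barcode held 2 Cd209a UMIs against 6. The limit kept 88.3% of barcodes that met the gene conditions (83.9 to 91.8), 72.3% of C1q-high macrophages, 82.1% of Ly6c2 Ccr2 monocytes and 24.0% of Cd209a-negative class II-high cells. The part of cell damage in these differences was not tested.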

How the results depend on the processing

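The number of called genes kept within 1.5 times of its value against macrophages (1521) in all 9 alternatives, between 1018 and 2174. Against Cd209a-negative class II-high cells (6165) it was 2452 after thinning and 87 without epithelial UMIs, and against monocytes (751) it was 376 with DESeq2 (187 higher, 189 lower) and 269 after thinning. With the library as a replicate block the counts were 5893, 1694 and 757. No fit left out a library, since 1 against 1 leaves no residual degrees of freedom.

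Against Cd209a-negative class II-high cells the log2 fold change turned without epithelial UMIs to -0.02 for Flt3, -2.77 for Irf8, -2.58 for Id2, -2.82 for Naaa, -0.98 for Cst3, -1.15 for Plac8, 1.21 for Omp, 0.48 for Krt18 and 0.78 for Epcam. It turned after thinning to -0.07 for Irf8 and -0.25 for Naaa, and at a mitochondrial limit of 10% to 0.74 for Vmn1r196. The fit without epithelial UMIs kept barcodes with at most 2 UMIs of Epcam, Krt18 and Krt5 together. It also required at least 1 Ptprc UMI in the Cd209a-negative group, which fell from 789 to 111 barcodes. The turns of Krt18 and Epcam thus follow in part from the choice of cells. The cause of the other turns was not tested. Against macrophages and monocytes no named gene turned.

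The number of members ranged from 112 to 136 with 1 library left out. The median share of members with a UMI of a listed gene was 12.1%, 11% with C1q at 0, 4.6% after thinning and 11% to 12.5% with 1 library left out. The monocyte group had 32 cells, with a median of 5774 UMIs. Of 137 named genes called against macrophages, 14 lost their call after thinning, and of 59 against monocytes, 16 did. With library 1 or 2 left out, the log2 fold change moved by more than the spread between libraries for 21 and 23 of the 137 and for 25 and 23 of the 59.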
